A study of Mus musculus with 4 samples.

Results

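The variable genes of the clustered protocadherins were followed in the embryonic telencephalon, the forebrain vesicle that forms cortex and basal ganglia, with and without Ctcf. Members were the genes whose deposited symbols belong to the alpha, beta, gamma-A and gamma-B series, which gave 54 of the 48795 genes in the table. They comprised 12 alpha, 22 beta, 12 gamma-A and 8 gamma-B entries. The C-type genes of the alpha and gamma clusters were not members, and neither was a gene whose identifier is that of Pcdhgc4 although the table gives it the symbol Pcdhga8. In the mm10 build the members lie, apart from the Pcdhgb8 entry ENSMUSG00000109483, which the annotation used here does not place, on the plus strand of chromosome 18 between 36930184, the start of Pcdha1, and 37841873, the end of the last shared gamma exon.

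The Ctcf-null group held 2 libraries from C57BL/6 embryos at embryonic day 14 with the genotype Ctcf floxed; NestinCre. The control group held 2 libraries of the same strain and stage with the genotype Ctcf floxed, so loxP sites in the gene were common to both groups and Cre was in the Ctcf-null group only. The labels do not say how many alleles were floxed. Cre driven by Nestin sequences acts in neural progenitors and their descendants, and cells of other origins in the dissected tissue, such as microglia, vessels, meninges and blood, keep the gene. Libraries were numbered as 2 pairs. The labels do not tie them to separate embryos, and p-values here therefore reflect no more than the spread among these 4 samples, part or all of which may be technical.

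Clustered protocadherins are cadherin-like adhesion molecules of the neuronal surface. In the alpha and gamma clusters each variable exon has its own promoter and encodes the extracellular, transmembrane and proximal cytoplasmic parts of 1 isoform, and it is spliced to constant exons shared by its cluster, whereas each beta gene is a single exon with no constant region. Most variable promoters hold a conserved element bound by CTCF, a zinc finger protein that anchors chromatin loops together with cohesin, and distal enhancers contact the promoters through such loops. Single neurons express a small set of variable isoforms, and the isoforms bind the same isoform on other membranes, which underlies self-avoidance of neurites and synaptic specificity. C-type isoforms are expressed more uniformly, and not all of their promoters carry the element.

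Libraries held 43812558 and 25519331 reads in Ctcf-null 1 and 2 and 41294659 and 27619441 reads in control 1 and 2. The pairs differed from each other more than the genotypes did, with a median absolute log2 difference over all tested genes of 0.83 between pairs and 0.23 between genotypes. The targeted gene followed the labels: Ctcf was at 38.89 and 61.96 normalized counts in Ctcf-null 1 and 2, against 436.72 and 1133.21 in control 1 and 2 (log2 fold change -3.81, SE 0.16, adjusted p = 8.0e-12, limma). Normalized counts are the authors' read counts scaled for library depth and not divided by gene length. Fold changes are of Ctcf-null over control on the log2(normalized count + 1) scale, on which the change of a gene with few reads comes out too small, from a limma fit with pair and genotype as terms over 21865 genes, and p-values are two-sided and adjusted by the Benjamini-Hochberg method with a threshold of 0.05. In bulk tissue, fewer cells of a type and less RNA per cell cannot be told apart.

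Variable protocadherin transcripts were lower in Ctcf-null telencephalon across the alpha, beta and gamma-A families, whereas the gamma-B family was divided. Of the 54 members, 45 had enough reads to be tested, and 37 of these fell, 1 rose and 7 did not pass the threshold. Over all tested genes 10.1% fell and 3.69% rose. The median log2 fold change of the 45 tested members was -1.82, beside -0.07 over all tested genes. Falls of at least 2-fold passed the threshold in 34 members (1.22% of all tested genes), and falls of at least 4-fold in 16 members (0.206% of all tested genes). In 34 members, not all of them called, both Ctcf-null libraries lay below both controls, as did 7.67% of all tested genes. The 5 members that fell although the groups overlapped were Pcdha6, Pcdhga4, Pcdhga9, Pcdhga11 and Pcdhga12, each of which was lower in Ctcf-null in both pairs. In all, 41 of the 45 were lower in Ctcf-null in both pairs, beside 43.1% of all tested genes. Taken singly, 44 were lower in pair 1 and 41 in pair 2, beside 58% and 60.6% of all tested genes.

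The number of members called varied with the method. On reads recovered from the normalized counts, edgeR's quasi-likelihood test with the same block called 38 members lower and 1 higher, beside 7.14% and 4.83% of all tested genes. DESeq2 with the block called 24 lower and 0 higher, beside 2.52% and 1.34%. Of the 13 members whose fall DESeq2 did not call, Pcdha3, Pcdha6, Pcdhb4, Pcdhb6, Pcdhb21 and Pcdhga4 were above the threshold, and Pcdha5, Pcdhb2, Pcdhb10, Pcdhb11, Pcdhb15, Pcdhb16 and the Pcdha11 entry ENSMUSG00000007440 had no adjusted p. Under limma with TMM factors 37 were lower and 1 higher, beside 6.35% and 4.54% of all tested genes, and with upper-quartile factors 37 were lower and 1 higher, beside 4.32% and 5.9%. Pcdhgb4 was the gene called higher in each of these fits except DESeq2. Without the pair as a block, 0 members and 0 genes passed the threshold in limma, with an unadjusted p under 0.05 in 19 members and 171 genes, and edgeR without the block likewise called 0.

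**Figure D1:**
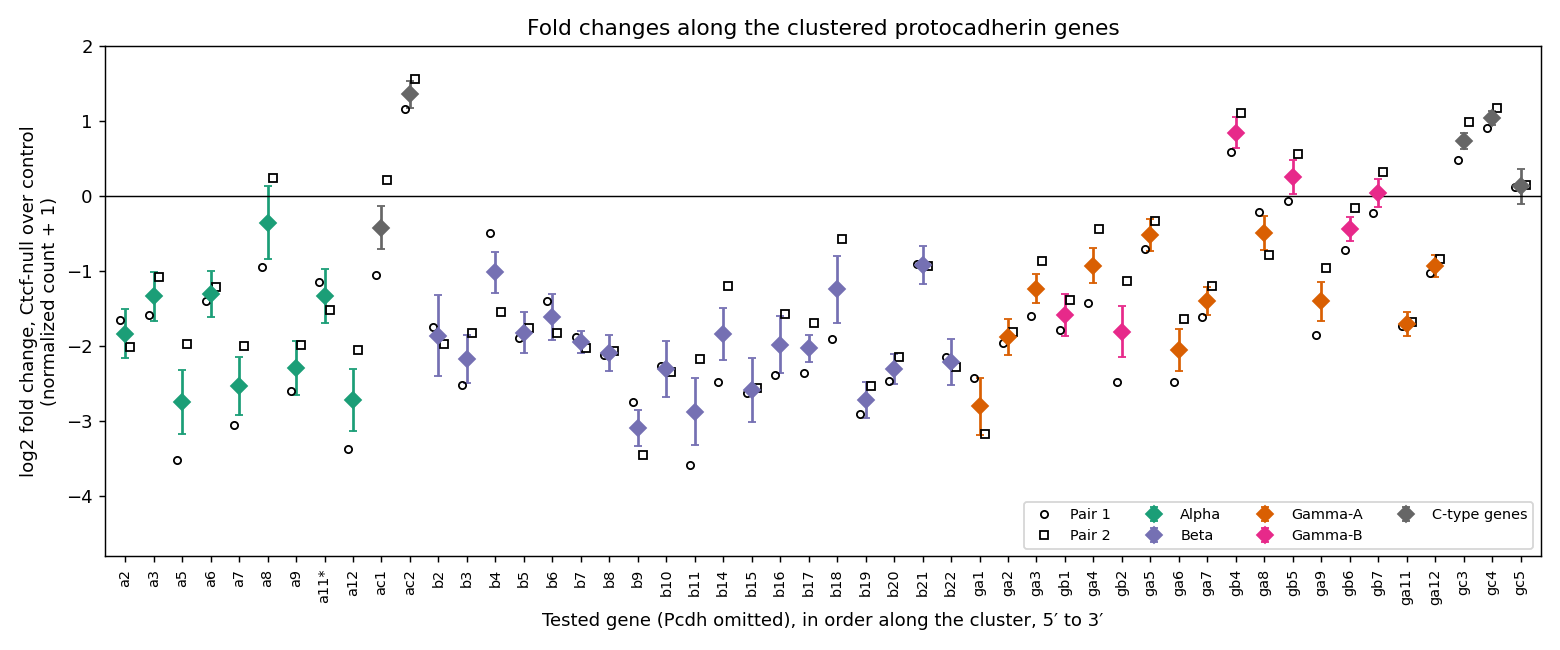
Log2 fold change (Ctcf-null over control, normalized count + 1) of each tested member and the C-type genes, in order along chromosome 18. Diamonds are limma estimates with bars of 1 standard error, circles and squares are the values of pair 1 and pair 2, and a11* is the Pcdha11 entry ENSMUSG00000007440. All alpha, beta and gamma-A diamonds lie below 0, and the diamonds above 0 are Pcdhac2, Pcdhgb4, Pcdhgb5, Pcdhgb7, Pcdhgc3, Pcdhgc4 and Pcdhgc5.

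Of the 12 alpha entries, which encode the isoforms that join the alpha constant exons, 9 were tested and 8 fell, with log2 fold changes of -2.75 to -1.31 and a family median of -1.83. Pcdha5 (start 36960440) was at 1.41 and 15.79 normalized counts in Ctcf-null 1 and 2, against 26.68 and 65.04 in control 1 and 2 (log2 fold change -2.75, SE 0.42, adjusted p = 0.00017, limma). Pcdha12 (start 37020149) was at 1.41 and 15.79 in Ctcf-null 1 and 2, against 24.01 and 68.79 in control 1 and 2 (-2.71, SE 0.41, adjusted p = 0.00016, limma). Pcdha7 (start 36973802) was at 2.12 and 17.01 in Ctcf-null 1 and 2, against 24.9 and 71.29 in control 1 and 2 (-2.53, SE 0.39, adjusted p = 0.00017, limma). In all of these, both Ctcf-null libraries lay below both controls, and the second library of each genotype was the higher one. For Pcdha5, Pcdha7 and Pcdha12 the fall was larger in pair 1, at -3.52, -3.05 and -3.37, than in pair 2, at -1.98, -2.0 and -2.06, and the Ctcf-null 1 values stand for 2, 3 and 2 reads.

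Pcdha9 (start 36997880) was at 2.83 and 19.44 in Ctcf-null 1 and 2, against 22.24 and 80.05 in control 1 and 2 (-2.29, SE 0.36, adjusted p = 0.00022, limma). Pcdha2 (start 36939205), the alpha member with the most normalized counts over the 4 libraries, not scaled for length, was at 6.36 and 20.65 in Ctcf-null 1 and 2, against 22.24 and 86.3 in control 1 and 2 (-1.84, SE 0.33, adjusted p = 0.00082, limma). Neither gene overlapped between the groups. Smaller falls were found for Pcdha3 (-1.34), Pcdha6 (-1.31) and the Pcdha11 entry ENSMUSG00000007440 (-1.33), which starts where RefSeq (GRCm38.p6) places Pcdha10, and DESeq2 called none of these lower. Pcdha8 did not pass: it was at 10.61 and 6.07 in Ctcf-null 1 and 2, against 21.35 and 5.0 in control 1 and 2 (-0.35, SE 0.49, adjusted p = 0.70, limma), lower in pair 1 and higher in pair 2. The untested Pcdha1, Pcdha4 and Pcdha11 entry ENSMUSG00000102206 had at most 6 reads in any library. Only 404 of the 5768 exonic bases of Pcdha4 belong to no other annotated gene. How reads shared between genes were counted is not known, so its few reads need not mean low expression.

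All 19 tested beta genes were lower in Ctcf-null in both pairs, and in each of them both Ctcf-null libraries lay below both controls. Of these, 18 fell, with log2 fold changes of -3.10 to -0.92 and a family median of -2.03. Because each beta gene is 1 exon without shared constant sequence, beta members can be compared in level per length.

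Pcdhb9 (37400855 to 37403909) had the lowest fold change of all members. It was at 24.75 and 14.58 in Ctcf-null 1 and 2, against 171.66 and 168.86 in control 1 and 2 (-3.10, SE 0.24, adjusted p = 2.9e-08, limma), or 8.55-fold lower. Pcdhb11 (37421418 to 37425836) was at 2.12 and 7.29 in Ctcf-null 1 and 2, against 36.47 and 36.27 in control 1 and 2 (-2.88, SE 0.45, adjusted p = 0.00018, limma). The controls of both genes were nearly equal across the pairs, while the order of the Ctcf-null libraries was opposite in the 2 genes. Pcdhb19 (37496991 to 37504128) was at 16.97 and 21.87 in Ctcf-null 1 and 2, against 133.42 and 131.33 in control 1 and 2 (-2.72, SE 0.24, adjusted p = 1.7e-07, limma). Pcdhb15 (37473540 to 37476340) was at 4.95 and 3.64 in Ctcf-null 1 and 2, against 35.58 and 26.27 in control 1 and 2 (-2.59, SE 0.43, adjusted p = 0.00033, limma). Pcdhb20 (37504264 to 37507822) was at 42.43 and 30.37 in Ctcf-null 1 and 2, against 240.15 and 137.59 in control 1 and 2 (-2.31, SE 0.20, adjusted p = 1.3e-07, limma).

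Per kilobase of exon, Pcdhb7 had the highest beta level in every library, with 29.7 and 19.8 normalized counts per kb in Ctcf-null 1 and 2, against 110.0 and 81.5 in control 1 and 2. Pcdhb17 followed in control 1, at 75.8 per kb, but in control 2 it was at 40.3, below the 55.3 of Pcdhb9. In Ctcf-null 1 and 2 Pcdhb17 was at 14.6 and 12.3 per kb and Pcdhb9 at 8.10 and 4.77 per kb. The smallest falls in the family were those of Pcdhb21 (-0.92, SE 0.26) and Pcdhb4 (-1.02, SE 0.28), neither of which DESeq2 called. Pcdhb21 was at 30.41 and 30.37 in Ctcf-null 1 and 2, against 57.81 and 58.79 in control 1 and 2. In Pcdhb4 the pairs differed, at -0.50 in pair 1 and -1.54 in pair 2.

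Pcdhb18 did not pass, at 6.36 and 9.72 in Ctcf-null 1 and 2, against 26.68 and 15.01 in control 1 and 2 (-1.24, SE 0.44, adjusted p = 0.070, limma), although the groups did not overlap. Pcdhb1, the first gene of the beta cluster (37264938 to 37267525), had too few reads to be tested, at 0.71 and 3.64 in Ctcf-null 1 and 2, against 2.67 and 2.5 in control 1 and 2. Pcdhb12 and Pcdhb13 were not tested either. Pcdhb12 stood for 2 and 0 reads in Ctcf-null 1 and 2, against 14 and 3 in control 1 and 2, and Pcdhb13 for 2 and 3 reads in Ctcf-null 1 and 2, against 19 and 0 in control 1 and 2.

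**Figure D2:**
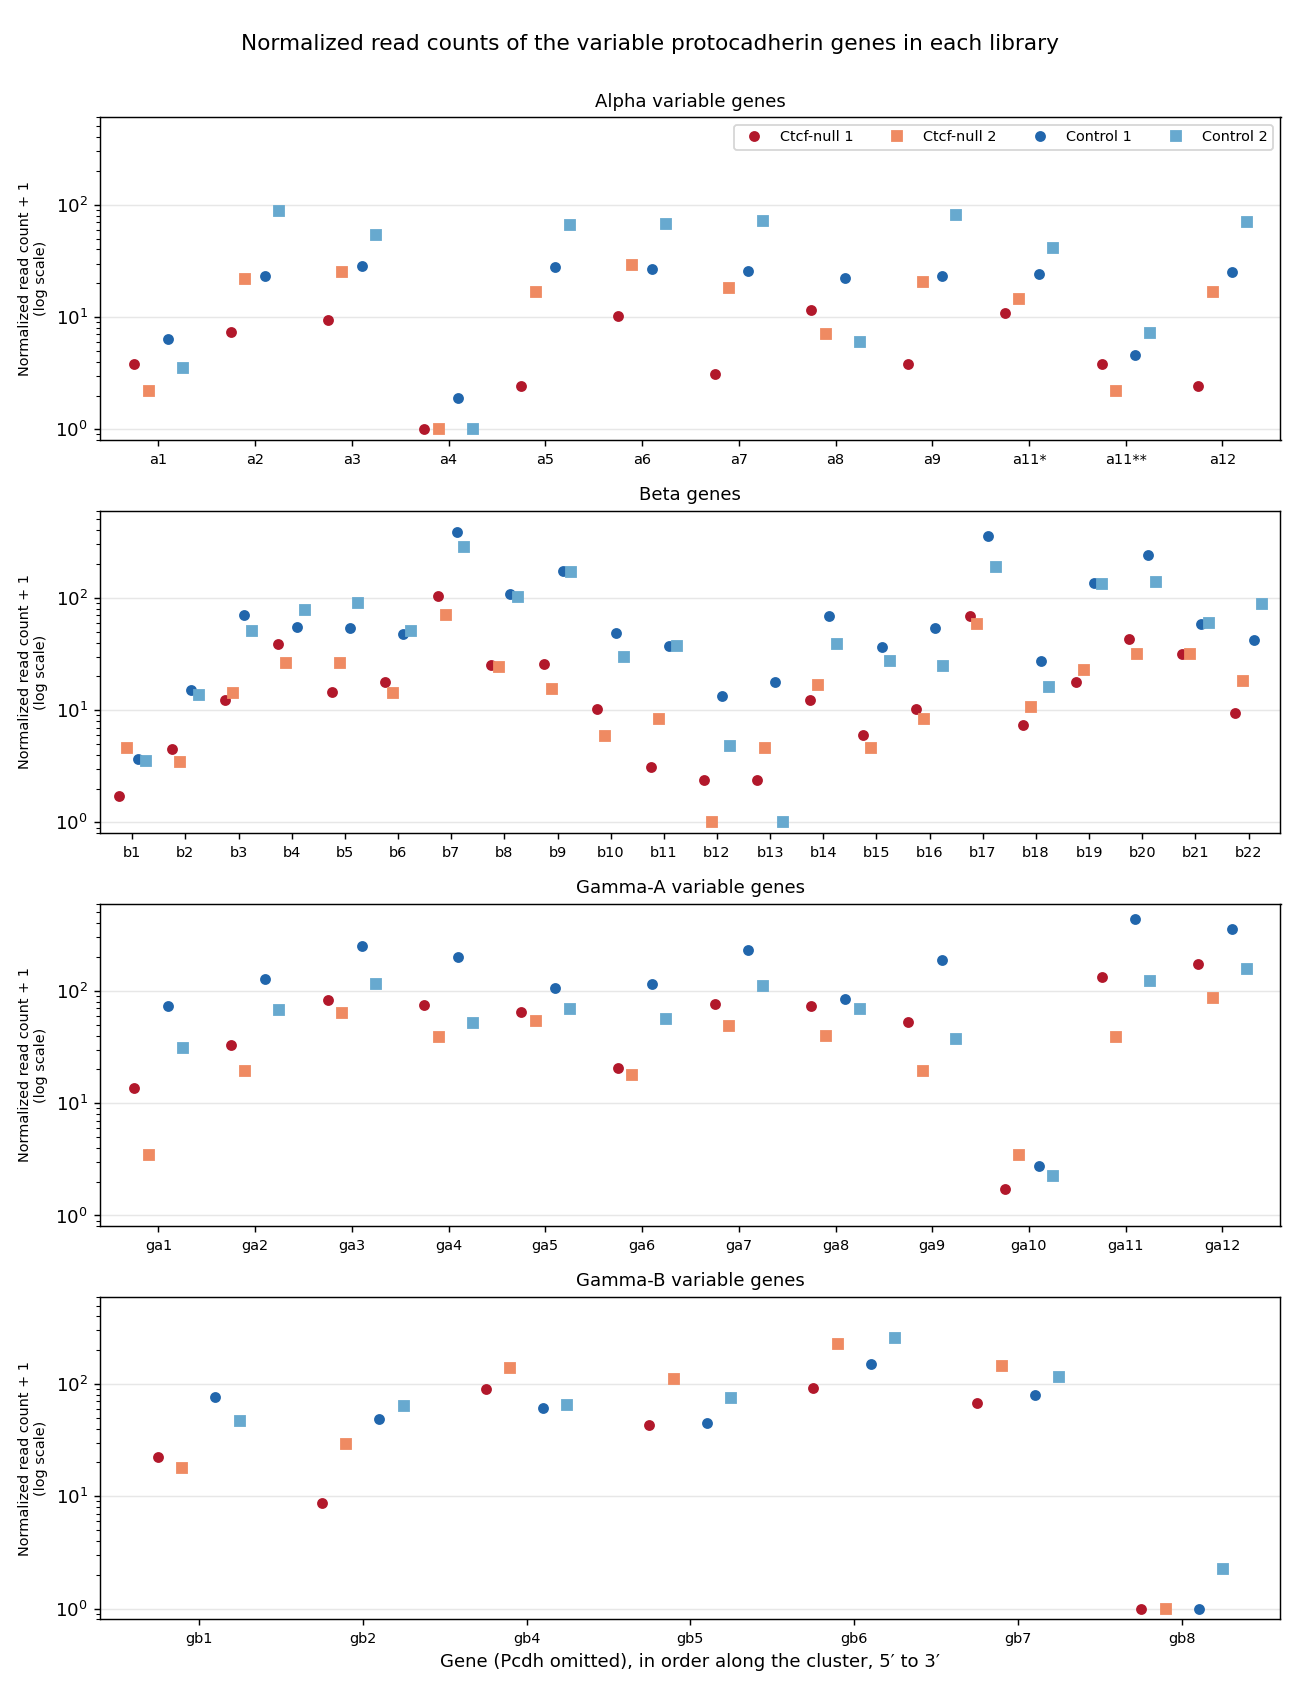
Normalized read count of the members in each library, Ctcf-null 1 and 2 and control 1 and 2, in order along the cluster and on a log axis; a11* is the Pcdha11 entry ENSMUSG00000007440 and a11** the entry ENSMUSG00000102206. For most alpha, beta and gamma-A members the Ctcf-null points lie under the control points, and Pcdhgb4 has both Ctcf-null points (89.8 and 138.5) above both control points (59.59 and 63.79).

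Gamma-A isoforms share the gamma constant exons with gamma-B and the gamma C-type isoforms. Of 12 gamma-A members 11 were tested, 9 fell, and all 11 were lower in Ctcf-null in both pairs, with a family median of -1.40. Pcdhga1 (start 37661793), the first gene of the gamma cluster, was at 12.73 and 2.43 in Ctcf-null 1 and 2, against 72.93 and 30.02 in control 1 and 2 (-2.80, SE 0.38, adjusted p = 4.0e-05, limma). Pcdhga6 (start 37707039) was at 19.8 and 17.01 in Ctcf-null 1 and 2, against 114.74 and 55.03 in control 1 and 2 (-2.06, SE 0.28, adjusted p = 4.9e-05, limma). Pcdhga2 (start 37668953) was at 31.82 and 18.22 in Ctcf-null 1 and 2, against 126.3 and 66.29 in control 1 and 2 (-1.88, SE 0.24, adjusted p = 2.6e-05, limma). These did not overlap between the groups, and in each of them the first library of a genotype was the higher one, the reverse of the alpha genes named above.

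Pcdhga11 (start 37755731) was at 130.81 and 37.66 in Ctcf-null 1 and 2, against 436.72 and 122.58 in control 1 and 2 (-1.70, SE 0.16, adjusted p = 4.9e-07, limma). Its Ctcf-null 1 value exceeded that of control 2, so the groups overlapped, but the fall was nearly the same in both pairs, at -1.73 and -1.68. Pcdhga7 (start 37714764) was at 74.95 and 47.38 in Ctcf-null 1 and 2, against 231.25 and 110.07 in control 1 and 2 (-1.41, SE 0.19, adjusted p = 3.4e-05, limma). Pcdhga12, the gamma-A member with the most normalized counts, not scaled for length, was at 171.83 and 86.26 in Ctcf-null 1 and 2, against 352.22 and 155.1 in control 1 and 2 (-0.94, SE 0.15, adjusted p = 0.00021, limma). Pcdhga3, Pcdhga4 and Pcdhga9 also fell, with log2 fold changes of -1.23, -0.93 and -1.40. Pcdhga5 (-0.52, SE 0.21, adjusted p = 0.11) and Pcdhga8 (-0.50, SE 0.23, adjusted p = 0.16) did not pass in limma. Pcdhga10 had at most 2 reads in any library and was not tested. Every exonic base of it is also covered by another annotated gene on either strand. On its own strand, 2613 of its 4732 exonic bases belong to no other gene.

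Gamma-B isoforms are interleaved with gamma-A along the chromosome. Of 8 entries, 6 were tested: 2 fell, 1 rose and 3 did not pass, with a family median of -0.20 (-0.48 in pair 1 and 0.08 in pair 2). Pcdhgb2 (start 37689828) was at 7.78 and 27.94 in Ctcf-null 1 and 2, against 48.03 and 62.54 in control 1 and 2 (-1.81, SE 0.34, adjusted p = 0.0011, limma). Pcdhgb1 (start 37680233) was at 21.21 and 17.01 in Ctcf-null 1 and 2, against 75.6 and 46.28 in control 1 and 2 (-1.59, SE 0.28, adjusted p = 0.00075, limma). Both genes lay lower in Ctcf-null without overlap.

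Pcdhgb4 (start 37720369) was the member that rose, at 89.8 and 138.5 in Ctcf-null 1 and 2, against 59.59 and 63.79 in control 1 and 2 (0.85, SE 0.20, adjusted p = 0.0083, limma), and both Ctcf-null libraries lay above both controls. Pcdhgb5 (start 37731009) was at 41.72 and 109.34 in Ctcf-null 1 and 2, against 43.58 and 73.8 in control 1 and 2 (0.25, SE 0.23, adjusted p = 0.53, limma). Pcdhgb7 (start 37751600) was at 67.18 and 143.36 in Ctcf-null 1 and 2, against 79.16 and 115.07 in control 1 and 2 (0.04, SE 0.19, adjusted p = 0.92, limma). In Pcdhgb5 and Pcdhgb7 the groups overlapped, with the Ctcf-null library slightly lower in pair 1 and higher in pair 2.

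Pcdhgb6 (start 37742094), the gamma-B member with the most normalized counts, not scaled for length, was at 90.51 and 228.4 in Ctcf-null 1 and 2, against 150.32 and 255.16 in control 1 and 2 (-0.44, SE 0.16, adjusted p = 0.075, limma). It was lower in both pairs, but the groups overlapped. Both entries named Pcdhgb8 had at most 1 read in any library. Among the gamma genes Pcdhga1, Pcdhga6, Pcdhga2 and Pcdhgb2 had the lowest fold changes and start between 37661793 and 37707039. In the same stretch lie genes with smaller changes, Pcdhgb1 (-1.59), Pcdhga3 (-1.23), Pcdhga4 (-0.93) and Pcdhga5 (-0.52). Pcdhga11, which came next after Pcdhgb2 in fold change, lies near the end of the cluster. Across the 17 tested gamma-A and gamma-B genes, which share libraries and constant exons, the fold change was higher further along the chromosome, at r = 0.49 and Spearman's rho = 0.50. Taken by family, r was 0.35 (rho 0.32) for the 11 gamma-A genes and 0.73 (rho 0.43) for the 6 gamma-B genes. For the 9 alpha genes r was -0.08 and for the 19 beta genes -0.13. These relations are across genes and are descriptions only.

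Summed over members, each of the alpha, beta and gamma-A families was lower in the Ctcf-null library of both pairs. The alpha sum was 57.98 and 162.8 normalized counts in Ctcf-null 1 and 2, against 227.7 and 544.1 in control 1 and 2, so the Ctcf-null library held 25.5% of its control in pair 1 and 29.9% in pair 2. The beta sum was 449.0 and 399.7 in Ctcf-null 1 and 2, against 2025.3 and 1607.3 in control 1 and 2, or 22.2% and 24.9% of the paired control. The gamma-A sum was 785.6 and 421.6 in Ctcf-null 1 and 2, against 2163.1 and 876.8 in control 1 and 2, or 36.3% and 48.1%. In these families the genotypes did not overlap, and the gap was widest in beta, whereas the pairs themselves differed by more than 2-fold in the alpha and gamma-A controls. The gamma-B sum was 318.2 and 664.5 in Ctcf-null 1 and 2, against 456.3 and 617.9 in control 1 and 2, or 69.7% of the paired control in pair 1 and 107.6% in pair 2.

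**Figure D3:**
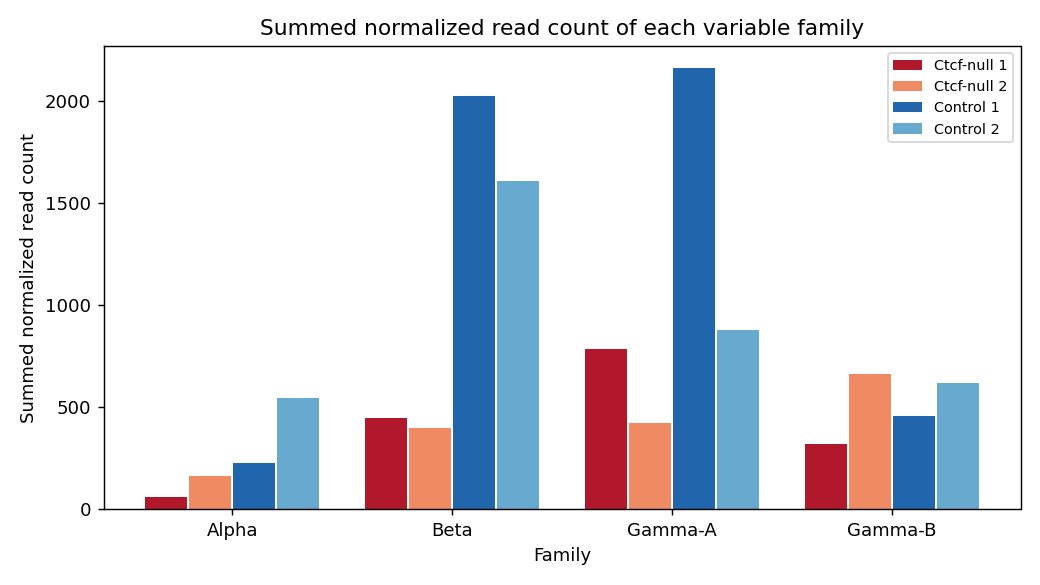
Summed normalized read count (linear axis from 0) of the alpha, beta, gamma-A and gamma-B members in each library, 1 bar per library, Ctcf-null 1 and 2 left of control 1 and 2. Beta bars are 449.0 and 399.7 in Ctcf-null and 2025.3 and 1607.3 in control, whereas the gamma-B bars overlap between the genotypes.

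The share of a family's normalized counts, not divided by length, taken by its most abundant member differed by a few percentage points between the genotypes. The most abundant member was the one with the highest mean over the 4 libraries. It was not the highest in every library: in control 1 Pcdhga11 held 20.2% of the gamma-A sum. Pcdhb7 held 23.2% and 17.3% of the beta sum in Ctcf-null 1 and 2, against 19.02% and 17.7% in control 1 and 2. Pcdhga12 held 21.9% and 20.5% of the gamma-A sum in Ctcf-null 1 and 2, against 16.3% and 17.7% in control 1 and 2, and Pcdhgb6 held 28.4% and 34.4% of the gamma-B sum in Ctcf-null 1 and 2, against 32.9% and 41.3% in control 1 and 2. Pcdha2 held 11.0% and 12.7% of the alpha sum in Ctcf-null 1 and 2, against 9.77% and 15.9% in control 1 and 2. For Pcdha2 and Pcdhb7 the order of the genotypes changed between the pairs. The effective number of members of a family is 1 divided by the sum of their squared shares. For beta it was 9.11 and 11.8 in Ctcf-null 1 and 2, against 9.75 and 11.4 in control 1 and 2. For alpha it was 7.64 and 8.33 in Ctcf-null 1 and 2, against 9.68 and 8.06 in control 1 and 2. For gamma-A it was 7.925 and 8.191 in Ctcf-null 1 and 2, against 8.372 and 8.987 in control 1 and 2. For gamma-B it was 4.398 and 4.209 in Ctcf-null 1 and 2, against 4.918 and 4.065 in control 1 and 2. Reads of the alpha and beta families were spread over many members in each library. In this measure the groups overlapped for alpha, beta and gamma-B, but not for gamma-A, which was lower in Ctcf-null.

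The fold change had little relation to the level in the controls. Across the 45 tested members, which share libraries, r between the log2 fold change and the log2 mean control level was 0.03 (rho 0.14). The members' fold changes in pair 1 and pair 2 correlated across genes at r = 0.71 for 9 alpha, 0.50 for 19 beta, 0.72 for 11 gamma-A and 0.96 for 6 gamma-B genes, as descriptions with no test. Members share stretches of sequence, and whether reads were assigned to the wrong member was not tested. Of the 50-base words in a beta transcript, a median of 4.46% (0 to 11.99%) also occurred in a transcript of another annotated gene. For alpha variable exons the median was 15.6% (10.2 to 96.2%, the highest in Pcdha4). For gamma-A variable exons the median was 0.295% (0 to 39.5%, the highest in Pcdhga4), and for gamma-B variable exons 11.6% (2.67 to 17.9%).

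None of the 5 C-type genes of the same clusters was called lower, and 3 rose. Pcdhac2 was at 130.11 and 215.03 in Ctcf-null 1 and 2, against 57.81 and 72.55 in control 1 and 2 (1.36, SE 0.18, adjusted p = 3.8e-05, limma). Pcdhgc4 (1.04, SE 0.10, adjusted p = 4.1e-07) and Pcdhgc3 (0.73, SE 0.11, adjusted p = 0.00012) rose as well in limma. Pcdhac1 (-0.42, adjusted p = 0.38) and Pcdhgc5 (0.13, adjusted p = 0.77) did not pass in limma. C-type genes held 61.2% and 52.4% of all clustered protocadherin normalized counts in Ctcf-null 1 and 2, against 24.6% and 19.3% in control 1 and 2. These counts are not divided by length. How reads of the constant exons that C-type and variable genes share were assigned is not known. The gamma-B sum was 0.709 and 1.66 times the beta sum in Ctcf-null 1 and 2, against 0.225 and 0.384 times in control 1 and 2. For both ratios the groups did not overlap, and the exact two-sided permutation p was 0.333, the smallest that 2 libraries against 2 allow. The permutation took no account of the pairs. The other ratios computed, out of 5, overlapped between the groups, each with an exact permutation p of 0.667. The gamma-B sum was 0.405 and 1.58 times the gamma-A sum in Ctcf-null 1 and 2, against 0.211 and 0.705 times in control 1 and 2. The gamma-A sum was 1.75 and 1.05 times the beta sum in Ctcf-null 1 and 2, against 1.07 and 0.545 times in control 1 and 2. The alpha sum was 0.129 and 0.407 times the beta sum in Ctcf-null 1 and 2, against 0.112 and 0.339 times in control 1 and 2. Within each pair all of these ratios were higher in the Ctcf-null library.

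**Figure D4:**
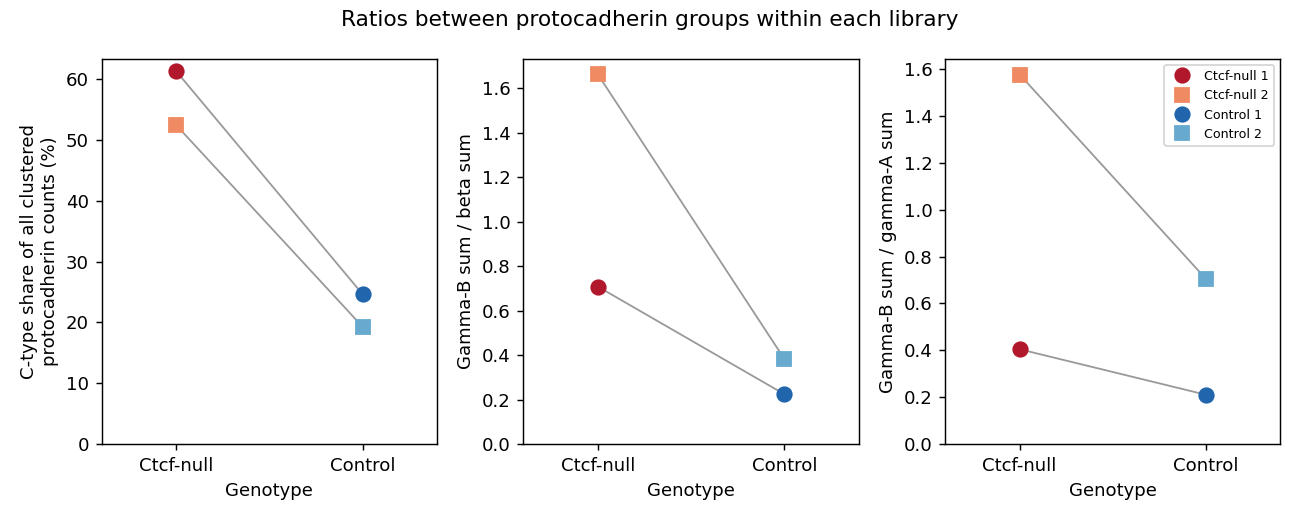
Ratios among the families in each library, 1 point per library, with Ctcf-null left of control, from normalized counts not divided by length. The C-type share of all clustered protocadherin counts is 61.2% and 52.4% in Ctcf-null and 24.6% and 19.3% in control, and the ratio of the gamma-B sum to the beta sum is 0.709 and 1.66 in Ctcf-null and 0.225 and 0.384 in control.

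No listed neighbour of the clusters was called lower. None of the 8 listed genes upstream of the alpha cluster passed the threshold, with a median log2 fold change of -0.13. Between the beta and gamma clusters, Taf7, a subunit of the general transcription factor TFIID, rose by 0.26 (adjusted p = 0.027, limma) and the mitochondrial carrier gene Slc25a2 did not pass. Of 6 genes downstream of the gamma cluster, Diaph1, a formin that nucleates actin filaments, rose by 0.89 (adjusted p = 1.2e-05, limma), and Rell2 rose by 1.12 (adjusted p = 0.018, limma), with 1.98 in pair 1 and 0.26 in pair 2. Among 15 genes for regulators of chromatin loops, DNA methylation or repression at the cluster, Ctcf fell, and Stag1, which encodes a subunit of cohesin, had a log2 fold change of 0.65 and rose (adjusted p = 5.3e-05, limma). Among 17 genes for enzymes and signalling partners of the proteins, the synaptic adhesion gene Nlgn1 (-0.40, adjusted p = 0.012) and the actin regulator gene Wasf1 (-0.47, adjusted p = 0.0029) fell in limma.

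Markers of some cell types differed between the genotypes as well, and their part in the members' values was not tested. The 12 neuronal markers, which included 3 that fell and 2 that rose, summed to 73.3% and 80.7% of the paired control, with a median log2 fold change of -0.05. Tubb3, a neuronal tubulin, held 63.2% and 56.0% of that sum in Ctcf-null 1 and 2, against 72.7% and 59.0% in control 1 and 2, and without it the sums were 98.6% and 86.5% of the paired control. The 10 interneuron markers, of which 7 fell, summed to 60.7% and 47.3% of the paired control. Sst, the neuropeptide somatostatin, was at 146.37 and 679.12 in Ctcf-null 1 and 2, against 1491.59 and 5444.67 in control 1 and 2 (-3.17, adjusted p = 5.1e-14, limma), and Npy, neuropeptide Y, at 164.05 and 353.53 in Ctcf-null 1 and 2, against 656.41 and 1626.02 in control 1 and 2 (-2.10, adjusted p = 4.1e-11, limma). Of 9 apical progenitor markers 2 fell, with sums of 73.5% and 81.8%, or 99.1% and 91.9% without the radial glial gene Fabp7. Choroid plexus markers summed to 131% and 144% of the paired control (2 of 7 rose), or 122% and 118% without the transthyretin gene Ttr, and microglial markers to 124% and 122% (1 of 8 rose). Endothelial markers summed to 79.9% and 88.9% (1 of 6 fell), meningeal and fibroblast markers to 104% and 106% (1 of 6 rose) and red blood cell markers to 69.2% and 108% (0 of 5 called). Of 4 markers of olfactory ensheathing and Schwann cells 2 were tested and 0 called, with sums of 137% and 112%. No marker was at 0 in every library.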

How the data were processed

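The molecule was total RNA, and a Clontech Smart kit was used for the cDNA, per the labels' protocols. STAR 2.5.3, DESeq2 and mm10 were used, per the submitters' processing notes. Gene counter, strand setting and annotation: not given in the sources used here. Reads of overlapping or antisense genes therefore could not be separated. The authors deposited, per the file headers, a signal of normalized read counts per gene and library, and log2 fold changes per pair that equal log2((Ctcf-null + 1)/(control + 1)). Values were whole multiples of 1 read for at least 99.99% of nonzero values (tolerance 0.005), which gave the reads and depth.

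The test was limma 3.58.1 (R 4.3.3) with trend on log2(value + 1) after filterByExpr in edgeR 4.0.16, with pair as a block, 1 residual degree of freedom and 17.4 prior degrees of freedom. The pairing comes from the submitters' design text and the fold changes per pair; the deviations from the genotype mean correlated at 0.926 between libraries of 1 number. The 2 libraries of a genotype differed by more than counting noise, with a chi-square of 343 (Ctcf-null) and 447 (control) per degree of freedom, and none was counted as a repeat. On simulated data (21865 genes, 200 changed) the fit recovered 56.7%, 94.0% and 100% of changes of 1.5-, 2- and 4-fold, with 18 false calls. These rates were not split by level, and recovery for members with few reads was not tested. Pcdhb2, for example, had 5 and 2 reads in Ctcf-null 1 and 2, against 16 and 10 in control 1 and 2. The rates therefore do not give the power for such members. Alternatives were edgeR's quasi-likelihood test and DESeq2 1.42.0 on the recovered reads, no block, TMM and upper-quartile factors, pseudocounts 0.5 and 4, no filter, a stricter filter (at least 20 in 2 libraries) and leaving out each pair. edgeR with the block called 1562 genes lower and 1056 higher.

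Positions and exon lengths come from GENCODE M21, to which 99.3% of identifiers matched. The members and gene lists were chosen with earlier results of these data known. Members named with full statistics were, by family, the 5 with the largest absolute fold change, and those with a sign opposite to the family median. Pcdhb1 is given by its values, being untested, and Pcdha8, Pcdhb18 and Pcdhga12 were added after their values were seen. A planned search of promoter motifs was not run for want of promoter sequences.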

Additional observations from a re-analysis of the deposited data

How the results depend on the processing

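The estimates of the 37 members called lower were below 0 in each fit that held them, which was 36 with the stricter filter and 37 otherwise. The same 37 members were called lower with edgeR with the block (38 in all), TMM factors, upper-quartile factors and both pseudocounts. Without filtering 39 were called lower, and with the stricter filter 36 of 42. DESeq2 with the block called 24 lower and 0 higher (4 alpha, 10 beta, 0 gamma-B higher), the other 13 split into 7 with no adjusted p and 6 above the threshold, and 550 genes lower and 292 higher. With no replicate block, limma and edgeR each called 0 members and 0 genes in either direction, with an unadjusted p under 0.05 for 19 members in both and for 171 and 172 genes. Over all genes limma called 2210 lower and 806 higher (26.7% higher), against 1389 lower and 992 higher with TMM (41.7%) and 944 lower and 1291 higher with upper-quartile factors (57.8%), which moved the median of all genes by 0.11.

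The alpha median was -1.61 with pseudocount 4, -1.33 with no filter and -2.07 with the stricter filter. Leaving out each pair gave medians of -1.98 to -1.66 for alpha, -2.27 to -1.98 for beta, -1.61 to -0.96 for gamma-A and -0.48 to 0.078 for gamma-B. The log2 ratio of the gamma-B sum ranged over -0.52 to 0.105, the share of Pcdha2 in the alpha sum differed by -3.17 to 1.20 percentage points and that of Pcdhb7 in the beta sum by -0.42 to 4.13. The cause of these changes was not tested. With 2 libraries per genotype, leaving out a pair left no test.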

Other observations

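The span of the clusters holds 27 other annotated genes, which were looked at after the members' values were seen. Of these, 8 were tested, 0 fell and 3 rose, beside 10.1% and 3.69% of all tested genes, and 8 were listed at 0 in every library. The tested genes include Taf7, which is among those that rose, and Slc25a2, both given above. Gm10544, a noncoding transcript on the minus strand within the alpha cluster (37159854 to 37178522), was at 239.0 and 411.9 normalized counts in Ctcf-null 1 and 2, against 152.1 and 293.9 in control 1 and 2 (log2 fold change 0.57, adjusted p = 0.0050, limma). BC037039, annotated as an antisense gene toward the end of the gamma cluster (37805718 to 37807922), was at 94.05 and 176.2 in Ctcf-null 1 and 2, against 56.03 and 111.3 in control 1 and 2 (0.70, adjusted p = 0.013, limma). The read-through genes Gm42416, Gm37013 and Gm37388, annotated from the alpha cluster into the gamma constant exons, were listed at 0 in all 4 libraries. Their exons overlap those of members, and how reads shared between genes were counted is not known. The values of 0 therefore do not show whether such transcripts were present.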
